A study of Mus musculus with 12 samples.

Results

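The genes described here are 40 genes of mitosis and chromosome segregation, the step of the cell cycle in which copied chromosomes are attached to a spindle, pulled apart and shared between daughter cells. They were chosen by name, as the array probes annotated with one of the 40 symbols, and a gene counted as measured when a probe for it was detected above the array's negative controls (detection p under 0.05) on at least 3 arrays. By that rule 31 of the 40 were measured, among 10497 genes measured in all. Of the rest, Ccnb1 and Mki67 had no probe named for them, and Bub1, Ccnb2, Cenpe, Hmmr, Kif20a, Nuf2 and Racgap1 had probes that were detected on 0 or 1 array.

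RNA of CD4-CD8 double-negative (DN) thymocytes, the T cell precursors that carry neither coreceptor yet, was measured after sorting on 12 Illumina MouseWG-6 v2.0 beadchips, with about 300 ng of RNA per array. The group with both changes, labelled NHD13 transgenic, Lyl1 knockout (3 arrays, named the knockout group here), carries the NHD13 transgene and lacks Lyl1, a transcription factor of the helix-loop-helix family that is active in early blood cells. The NHD13 group (3 arrays) carries the transgene alone, which encodes NUP98-HOXD13, a nuclear pore protein joined to a homeobox protein in some leukaemias, and the last group is wild type (6 arrays). All groups are labelled C57 BL/6, thymus, 2 to 3 months of age, and the series title asks whether the fusion makes thymocytes self-renew through Lmo2 and Lyl1. The sources used here do not give the promoter that drives the transgene. No group analysed here lacks Lyl1 without the transgene, so what the loss of Lyl1 does on its own was not tested. Since no label says that replicates are separate animals, the p-values measure the spread between these samples, which may be technical.

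Mitotic genes are switched on together late in the cell cycle, largely by the MuvB complex with B-Myb and FoxM1, which act through a short promoter element called the CHR (cell cycle genes homology region) and often through CCAAT boxes bound by NF-Y. Cyclins and kinases start mitosis, kinetochores attach chromosomes to the spindle, the spindle checkpoint holds back the anaphase-promoting complex until all are attached, and the central spindle then places the cleavage furrow. Transcripts of these genes are present mainly in dividing cells, and DN thymocytes are known for bursts of division around the rearrangement of the T cell receptor beta chain. In bulk RNA, fewer dividing cells and less RNA per dividing cell cannot be told apart.

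The promoters of members were read for both elements, because the genes are known to share them. RefSeq promoter windows (build GRCm38.p6) were matched for 34 of the 40 genes, the others being Ccna2, Cdc25c, Aurkb, Tpx2, Kif20a and Incenp. In the 250 bases before the start, the CHR core (TTTGAA, or TTCAAA on the other strand) was found in 10 of 34 members (29.4%), against 16.3% of the 27025 genes with a window and 10.6% of the 8557 of them that were measured. A CCAAT box (CCAAT or ATTGG) was found in 26 members (76.5%), against 34.5% and 36.7%. At least 2 CCAAT boxes stood in 19 members (55.9%), against 10.5% and 13.7%. Both elements stood in 9 members (26.5%), against 5.73% and 4.13%. No matches overlap in the promoters printed here, a match is a description of the sequence and not a site shown to be bound, and a window without a match says only that these letters are not in it. The last 150 bases before the start are printed for 5 members that hold both elements, a coactivator of the anaphase-promoting complex, a cytokinesis factor that differs from the rest in the results, a kinase, a topoisomerase and a spindle motor. Capitals mark CHR and CCAAT letters on either strand, and the sequences run 5′ to 3′ on the strand of the gene.
Cdc20: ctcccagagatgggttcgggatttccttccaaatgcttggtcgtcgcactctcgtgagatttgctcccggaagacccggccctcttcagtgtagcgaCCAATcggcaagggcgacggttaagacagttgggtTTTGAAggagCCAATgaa
Ect2: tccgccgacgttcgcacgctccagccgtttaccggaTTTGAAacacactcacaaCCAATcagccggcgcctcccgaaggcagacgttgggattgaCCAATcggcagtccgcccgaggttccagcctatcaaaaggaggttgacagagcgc
Cdk1: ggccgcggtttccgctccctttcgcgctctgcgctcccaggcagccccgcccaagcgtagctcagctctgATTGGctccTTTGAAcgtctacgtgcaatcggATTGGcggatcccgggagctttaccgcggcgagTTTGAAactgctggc
Top2a: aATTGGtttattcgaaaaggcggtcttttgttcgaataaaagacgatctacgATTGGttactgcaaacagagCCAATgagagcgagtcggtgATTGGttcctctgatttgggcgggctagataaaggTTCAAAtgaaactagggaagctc
Kif11: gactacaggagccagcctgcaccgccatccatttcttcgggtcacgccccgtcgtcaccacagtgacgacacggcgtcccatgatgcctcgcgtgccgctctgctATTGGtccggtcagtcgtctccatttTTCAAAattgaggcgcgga
These lie at chr4:118437344-118437493 (minus strand) for Cdc20, chr3:27153879-27154028 (minus) for Ect2, chr10:69352913-69353062 (minus) for Cdk1, chr11:99024190-99024339 (minus) for Top2a and chr19:37376232-37376381 (plus) for Kif11. The CHR nearest the start begins 18 bases before it in Cdc20, 15 in Cdk1, 23 in Top2a and 19 in Kif11, and 114 bases before it in Ect2. In Ect2 the CHR is the first of the printed elements, and in the other 4 promoters at least 1 CCAAT box lies upstream of the CHR nearest the start. Top2a holds 6 CCAAT boxes in the whole window, of which 4 are in the printed part.

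The arrays detected 37.9% to 43% of 45281 probes each. Lyl1 checked the labels: its probe read 4.75, 4.73 and 4.68 in the knockout group and was not detected there, against 11.18, 11.19 and 11.1 in NHD13 and 6.79 to 7.39 in wild type (log2 intensity, as for every level below). Knockout replicate 1 stood apart, with the neutrophil granule gene Mpo at 14.28, against 5.27 and 4.64 in the other knockout arrays, and the T cell receptor subunit Cd3e at 9.58, against 13.15 and 13.09. The summed linear signal of 13 myeloid markers (of 15 listed) spanned 582 to 88200 in the knockout group, 2690 to 51200 in NHD13 and 5630 to 18500 in wild type. The 51200 was NHD13 replicate 2, with 4910 and 2690 in NHD13 replicates 1 and 3. Of the DN markers (15 of 17 measured), Rag1, which cuts DNA at the receptor genes, read 8.22, 11.49 and 12.13 in the knockout group, 6.68, 6.48 and 5.38 in NHD13 and 10.87 to 11.31 in wild type. Cd3e was above 13 on every NHD13 and wild-type array. Cd3d of the same list was not, with 8.51, 13.12 and 13.33 in the knockout group, 11.88, 11.73 and 10.79 in NHD13 and 13.4 to 13.53 in wild type. The arrays also fell into unlabelled technical classes by the spread of 19512 probes detected on no array: wild-type replicates 1 to 3 and the knockout arrays in one, wild-type replicates 4 to 6 and the NHD13 arrays in the other. By the correlation of the same probes between arrays, wild-type replicates 1 to 3 stood apart from the other 9 arrays, so that the knockout and NHD13 arrays shared a class. Sex-linked probes read male in wild-type replicates 1 to 3 and knockout replicate 3 and female in the other 8 arrays.

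NHD13 thymocytes had lower levels of most mitosis genes than wild-type thymocytes. Of the 31 measured members, 24 fell and 0 rose (limma's moderated test, adjusted p under 0.05 by Benjamini and Hochberg over 20416 probes), where 12.6% of all genes measured were called lower and 11.6% higher. The log2 difference was below 0 for all 31, with a median of -1.41, from -2.11 for Spc25 to -0.56 for Cenpa, beside a median of 0 over all genes. A difference of -1 or below was seen in 23 of 31 members and in 6.58% of all genes. In 18 members every NHD13 array lay below every wild-type array, against 15.2% of all genes. These 18 include Ccna2 and Ttk, which no NHD13 array detected and which met the filter through the brighter groups. Ccna2 is also among the 24 that fell. The members that did not pass were Cdc25c, Cdkn3, Incenp, Cenpf, Ttk, Ube2c and Kif4. The size differed between NHD13 arrays: the mean deviation of the 31 genes from the wild-type mean was -0.47, -1.48 and -1.95 in NHD13 replicates 1, 2 and 3, against -0.27 to 0.18 across the wild-type arrays. NHD13 replicate 1 was the highest of its group for 29 members, and replicate 3 the lowest for 29. The median SD of a member between arrays was 0.43 in the knockout group, 0.8 in NHD13 and 0.31 in wild type (n = 3, 3 and 6). The fit uses 1 spread per probe for all groups. The SE and p-values of comparisons with NHD13 therefore draw on the less variable groups as well.

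In the knockout group most mitosis genes had higher levels than in NHD13, and 2 of the 31 differed from wild type by the test. Against NHD13, 21 of the 31 rose in the knockout group and 0 fell, where 13% of all genes were called higher and 9.22% lower. The median log2 difference was 1.34, beside 0.06 over all genes, and it was above 0 for every member but Ect2. Every knockout array lay above every NHD13 array in 13 members, against 21.7% of all genes. These 13 include Ccna2 and Ttk, which no NHD13 array detected, and Ccna2 is also among the 21 that rose. Against wild type, 1 member was higher (Cenpv) and 1 lower (Ect2) in the knockout group, where 4.49% of all genes were called higher and 3.81% lower, and the median difference was 0.1, beside 0.08 over all genes. A p that misses the threshold does not show equality: the 95% intervals of the knockout minus wild-type difference reached 0.4 to 0.93 log2 units to either side of the estimate, and 29 of 31 held 0. Mean deviations from wild type were 0.23, 0.36 and -0.41 in knockout replicates 1, 2 and 3, so replicate 3, the lowest of its group for 28 members, lay below every wild-type array in 18 members.

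The comparisons with NHD13 share its 3 arrays, so the fall and the rise are not independent of each other. Side by side, 19 genes were called in both, which is 79.2% of the 24 that fell and 90.5% of the 21 that rose. Another 5 (Cdk1, Top2a, Bub1b, Prc1 and Ect2) were called in NHD13 against wild type alone, 2 (Cdc25c and Cdkn3) in the knockout group against NHD13 alone, and 5 in neither. The 19 called in both include Ccna2, which no NHD13 array detected. The matching overlap over all genes was not computed, so these percentages do not set the members apart from other genes.

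**Figure D1:**
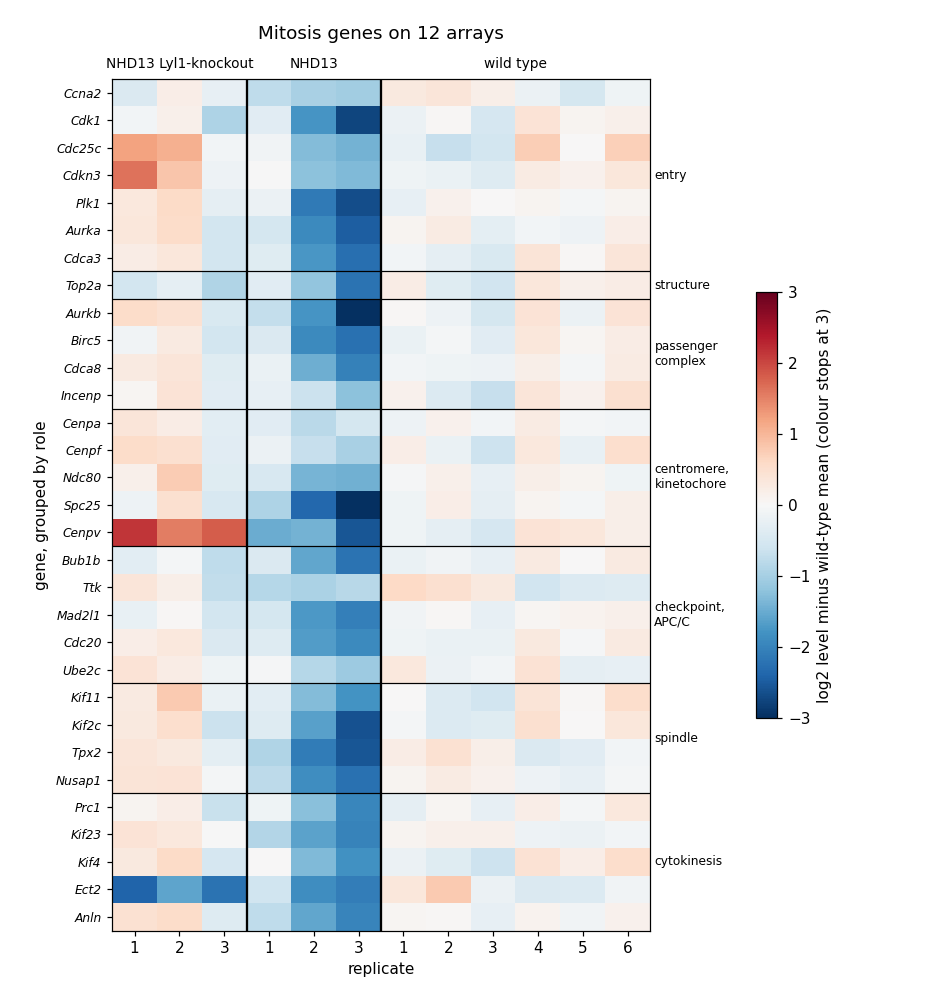
Levels of the 31 measured genes (rows, grouped by role) on the 12 arrays (columns, knockout, NHD13 and wild type from left to right, replicate numbers below), as log2 level minus the wild-type mean in colour. NHD13 replicates 2 and 3 are blue in nearly every row (means -1.48 and -1.95), NHD13 replicate 1 is paler (-0.47), Cenpv is red on all 3 knockout arrays and Ect2 blue on them.

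How far these counts rest on single arrays was measured by leaving arrays out. Without NHD13 replicate 3 the count of lower members was 8, against 24 with all arrays. Without replicate 2, the NHD13 array with the highest myeloid sum, it was 11, and without replicate 1 it was 27. Calls over all 10497 genes changed too, with 665, 671 and 1395 lower in these fits, in that order, against 1325 with all arrays. Spc25, Aurkb, Cenpv, Mad2l1, Tpx2, Nusap1, Kif23 and Anln were called lower whichever array was left out. In the knockout group against NHD13 the count was 7 without NHD13 replicate 2, 7 without NHD13 replicate 3, 8 without knockout replicate 2 and 14 without knockout replicate 1, against 21, and the same genes except Mad2l1 were called each time. Over all genes 722, 796, 870 and 1326 were called higher in these fits, in that order, against 1361 with all arrays. Without knockout replicate 1, the array with the highest myeloid sum, the median difference was 1.26 and 12.6% of all genes were called higher. All calls kept 1 direction in every such fit. With either technical class as a block, 25 members were lower in NHD13 than in wild type (11.3% of all genes). Between the knockout group and NHD13, 13 were higher in the knockout group with the class by spread as a block (8.58%), which separates these groups, and 22 with the class by correlation (16.1%), which they share. Within the spread class of the NHD13 arrays, against wild-type replicates 4 to 6 alone, 15 members were lower (8.52%). The call of 1 higher and 1 lower member in the knockout group against wild type stood with each class as a block and within the spread class of the knockout arrays.

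**Figure D2:**
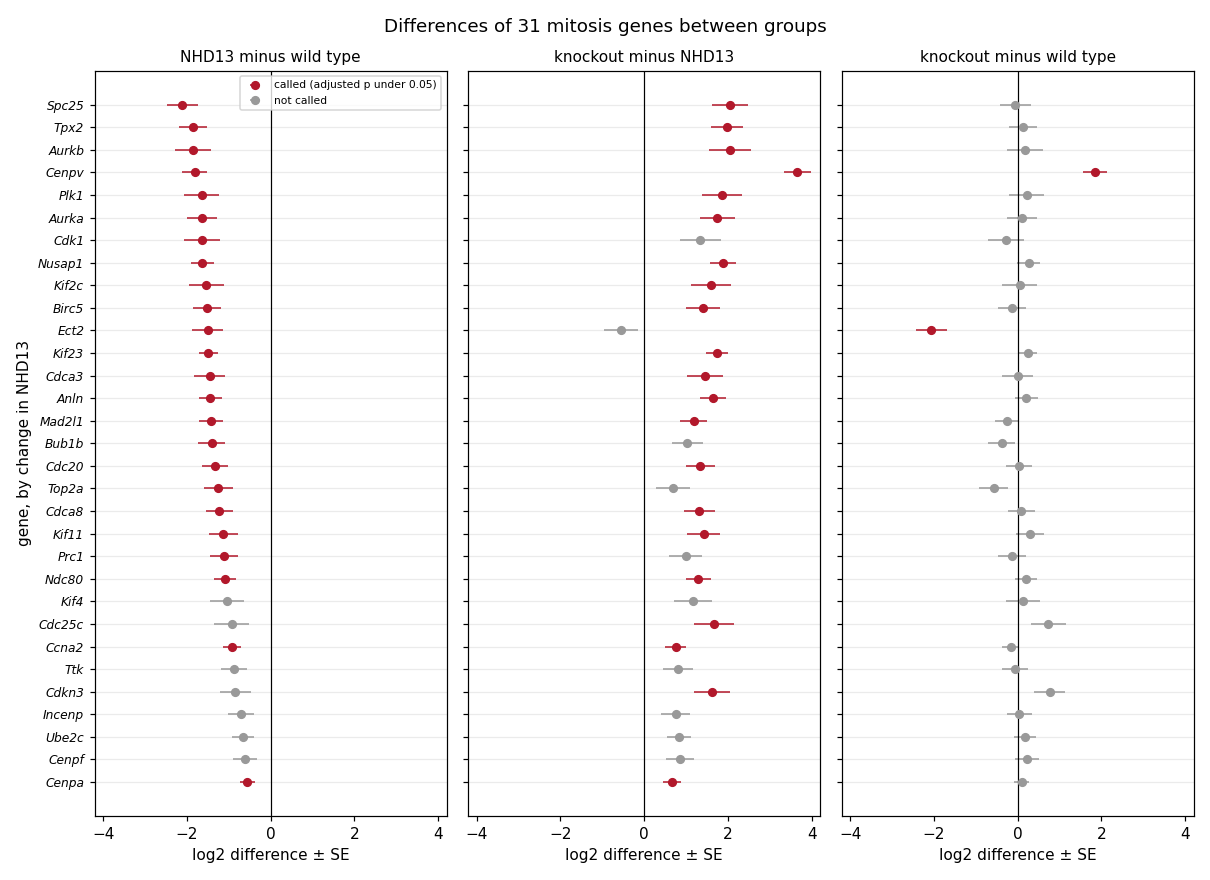
Log2 difference ± SE of each of the 31 genes in NHD13 minus wild type (left), knockout minus NHD13 (middle) and knockout minus wild type (right), from the fit to 12 arrays, in red where adjusted p is under 0.05. All points on the left lie below 0 (-2.11 to -0.56), all but Ect2 in the middle lie above 0, and on the right only Cenpv (1.84) and Ect2 (-2.06) are red.

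Of the genes of mitotic entry, 7 of 9 were measured, 5 fell in NHD13 against wild type and 6 rose in the knockout group against NHD13. Both counts include Ccna2, which no NHD13 array detected and which does not count as support. The counts for this role and those below are to be read beside the shares over all genes. These were 12.6% lower in the first comparison and 13% higher in the second. Cdk1, the kinase whose activation starts mitosis, read 11.18, 11.42 and 10.34 in the knockout group, 10.93, 9.50 and 8.51 in NHD13, and 10.76 to 11.68 in wild type with a median of 11.34. NHD13 replicate 1 lay inside the wild-type range and the other NHD13 arrays below it. Cdk1 fell 3.09-fold in NHD13 against wild type (log2 difference -1.63 ± 0.43 SE, adjusted p = 0.019), and its difference of 1.34 ± 0.49 between the knockout group and NHD13 did not pass (adjusted p = 0.0741). A second probe for Cdk1, detected on just 3 arrays, read differences of -0.13 and 0.33 and passed in neither. Plk1, polo-like kinase, which acts at centrosomes, kinetochores and the midbody, had 11.26, 11.52 and 10.68 in the knockout group, 10.77, 8.83 and 8.27 in NHD13, and 10.7, 10.99 and 11.07 as the lowest, median and highest wild-type levels. Here too NHD13 replicate 1 stayed within the other groups' ranges while its fellows were more than 1 log2 unit lower. Plk1 was 3.14-fold lower in NHD13 than in wild type (-1.65 ± 0.42, adjusted p = 0.0162) and 3.64-fold higher in the knockout group than in NHD13 (1.86 ± 0.48, adjusted p = 0.0184).

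Aurka, Aurora A, the centrosomal kinase of spindle assembly, was measured at 10.51, 10.72 and 9.63 in knockout samples, at 9.64, 8.26 and 7.71 in NHD13 samples, and at 9.89 to 10.42 (median 10.17) in wild type. All NHD13 values lay below wild type, by 3.11-fold on average (-1.64 ± 0.36, adjusted p = 0.00862), and the knockout group, whose lowest array overlapped the highest of NHD13, was 3.36-fold above NHD13 (1.75 ± 0.42, adjusted p = 0.0131). Cdca3, a ubiquitin ligase adaptor of mitotic entry, read 12.04, 12.16 and 11.27 in the knockout group, 11.47, 10.08 and 9.56 in NHD13, and 11.38 to 12.21 (median 11.81) in wild type. Its knockout and wild-type means (11.82 and 11.83) differed by less than the replicate spread, and it was 2.74-fold lower in NHD13 than in wild type (adjusted p = 0.0162).

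Cdkn3, a phosphatase that acts on cyclin-dependent kinases, had levels of 11.08, 10.27 and 9.30 in the knockout group, 9.44, 8.22 and 8.13 in NHD13, and 9.05 to 9.78 (median 9.45) in wild type. It did not pass in NHD13 against wild type (-0.85 ± 0.37, adjusted p = 0.131) but rose 3.08-fold in the knockout group against NHD13 (1.62 ± 0.43, adjusted p = 0.0206), with knockout replicate 1, the array with the highest myeloid sum, as its highest. Cdc25c, the phosphatase that activates Cdk1, went the same way, with 3.18-fold more in the knockout group than in NHD13 (1.67 ± 0.48, adjusted p = 0.0295). Both calls were lost when knockout replicate 1 was left out (adjusted p = 0.0835 for Cdc25c and 0.0611 for Cdkn3), and also without knockout replicate 2, NHD13 replicate 2 or NHD13 replicate 3.

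Ccna2, the cyclin that serves DNA replication and mitotic entry, was close to background. Its probe read 5.20, 5.83 and 5.38 in the knockout group, 4.88, 4.67 and 4.59 in NHD13 and 5.12 to 5.99 (median 5.66) in wild type, and was detected on 2 knockout, 0 NHD13 and 3 wild-type arrays. The NHD13 levels are therefore bounds: Ccna2 was at least 1.16-fold lower in NHD13 than in wild type (adjusted p = 0.0107) and at least 1.03-fold higher in the knockout group than in NHD13 (adjusted p = 0.0489), with the bound set at the lowest signal detected on each array. The second of these calls was lost in 9 of the 12 fits that left out 1 array, with adjusted p up to 0.167, and with the deposited log2 values (adjusted p = 0.0589). The Ccna2 probe met the filter on detection through the groups where it was brighter, as did that of Ttk, so neither counts as support. Among the 29 members detected on at least 6 arrays, which leaves out both, 23 were lower in NHD13 than in wild type (14.8% of all genes) and 20 higher in the knockout group than in NHD13 (15%). Ccnb1 and Ccnb2, the B cyclins that activate Cdk1, gave no measurement.

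Top2a, the topoisomerase that untangles sister chromatids, was the 1 measured gene of chromosome structure. It read 11.72, 12.01 and 11.36 in the knockout group, 11.92, 11.08 and 10.05 in NHD13, and 11.69 to 12.60 (median 12.46) in wild type. The groups overlapped in each comparison. Top2a fell 2.39-fold in NHD13 against wild type (-1.25 ± 0.35, adjusted p = 0.0251) and did not pass in the knockout group against NHD13 (0.68 ± 0.41, adjusted p = 0.258). A second probe was called in both (-1.74, adjusted p = 0.00204, and 1.07, adjusted p = 0.0413), and all 3 Top2a probes read below wild type in the knockout group without passing (-0.57, -0.67 and -1.09).

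Each of the 4 genes of the chromosomal passenger complex, which corrects faulty attachments and later guides cytokinesis, was measured, and 3 of them fell in NHD13 and rose in the knockout group against NHD13. Aurkb, the complex's kinase Aurora B, read 11.38, 11.30 and 10.38 in the knockout group, 10.12, 9.07 and 7.73 in NHD13, and 10.32 to 11.25 (median 10.78) in wild type. No NHD13 array reached either of the other groups. Aurkb was 3.63-fold lower in NHD13 than in wild type (-1.86 ± 0.43, adjusted p = 0.0103) and 4.12-fold higher in the knockout group than in NHD13 (2.04 ± 0.5, adjusted p = 0.0137). Birc5, survivin, which brings the complex to centromeres, had 11.80, 12.17 and 11.34 in knockout arrays, 11.47, 9.99 and 9.66 in NHD13 arrays, and 11.57 to 12.23 (median 11.9) in wild type. Birc5 fell 2.87-fold in NHD13 (adjusted p = 0.00916) and was 2.63-fold higher in the knockout group than in NHD13 (adjusted p = 0.0268), but its other 2 probes did not pass in the second comparison (1.13 and 1.1).

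Cdca8, borealin, followed Birc5, with 2.35-fold less in NHD13 than in wild type (adjusted p = 0.019) and 2.5-fold more in the knockout group than in NHD13 (adjusted p = 0.0265, with 0.0613 for its other probe). Incenp, the scaffold of the complex, read 10.93, 11.29 and 10.54 in the knockout group, 10.63, 10.24 and 9.65 in NHD13, and 10.2 to 11.37 (median 11) in wild type. Its groups overlapped, and it passed neither in NHD13 against wild type (-0.71 ± 0.3, adjusted p = 0.114) nor in the knockout group against NHD13 (0.75 ± 0.34, adjusted p = 0.144).

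Among centromere and kinetochore genes, 5 of 7 were measured, 4 fell in NHD13 and 4 rose in the knockout group against NHD13. Spc25, a subunit of the Ndc80 complex that grips microtubules, had the lowest log2 difference of all members in NHD13. Its levels were 9.60, 10.24 and 9.28 in the knockout group, 8.83, 7.41 and 6.73 in NHD13, and 9.49 to 9.96 (median 9.78) in wild type. Every NHD13 array lay below every other array. Spc25 fell 4.31-fold in NHD13 against wild type (-2.11 ± 0.37, adjusted p = 0.00252) and was 4.14-fold higher in the knockout group than in NHD13 (2.05 ± 0.42, adjusted p = 0.00658), and a second probe gave -2.22 and 1.92. Ndc80 itself was 2.15-fold lower in NHD13 than in wild type (adjusted p = 0.0119) and 2.44-fold higher in the knockout group than in NHD13 (adjusted p = 0.0121).

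Cenpa, the histone H3 variant that marks centromeres, had the smallest change of the members in NHD13. It read 13.21, 13.07 and 12.53 in knockout arrays, 12.51, 12.03 and 12.31 in NHD13 arrays, and 12.69 to 13.09 (median 12.78) in wild type, without overlap between NHD13 and the others. The fall was 1.47-fold (-0.56 ± 0.18, adjusted p = 0.0472) and the rise in the knockout group against NHD13 1.58-fold (0.66 ± 0.21, adjusted p = 0.0442). Each of these calls was lost in 9 of the 12 fits that left out 1 array, and a second probe passed in neither (-0.08 and 0.3). Cenpf, a large kinetochore protein, read 6.93, 6.87 and 6.04 in the knockout group, 6.20, 5.69 and 5.40 in NHD13, and 5.77 to 6.88 (median 6.39) in wild type, and its differences of -0.62 ± 0.29 in NHD13 against wild type and 0.85 ± 0.33 in the knockout group against NHD13 did not pass (adjusted p = 0.151 and 0.0891).

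Cenpv did not follow the rest. The protein is known in human cells as a centromere component needed for chromosome alignment. Its probe read 11.77, 11.16 and 11.43 in the knockout group, 8.13, 8.20 and 7.05 in NHD13, and 9.1 to 10.02 (median 9.64) in wild type, so the 3 groups were separate. Cenpv was 3.53-fold lower in NHD13 than in wild type (-1.82 ± 0.29, adjusted p = 0.00143), 12.6-fold higher in the knockout group than in NHD13 (3.66 ± 0.33, adjusted p = 8.22e-05) and 3.58-fold higher in the knockout group than in wild type (1.84 ± 0.29, adjusted p = 0.00337). It was the only member above wild type in the knockout group by this test, read by 1 probe, and leaving out any array kept that difference between 1.68 and 1.99.

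**Figure D3:**
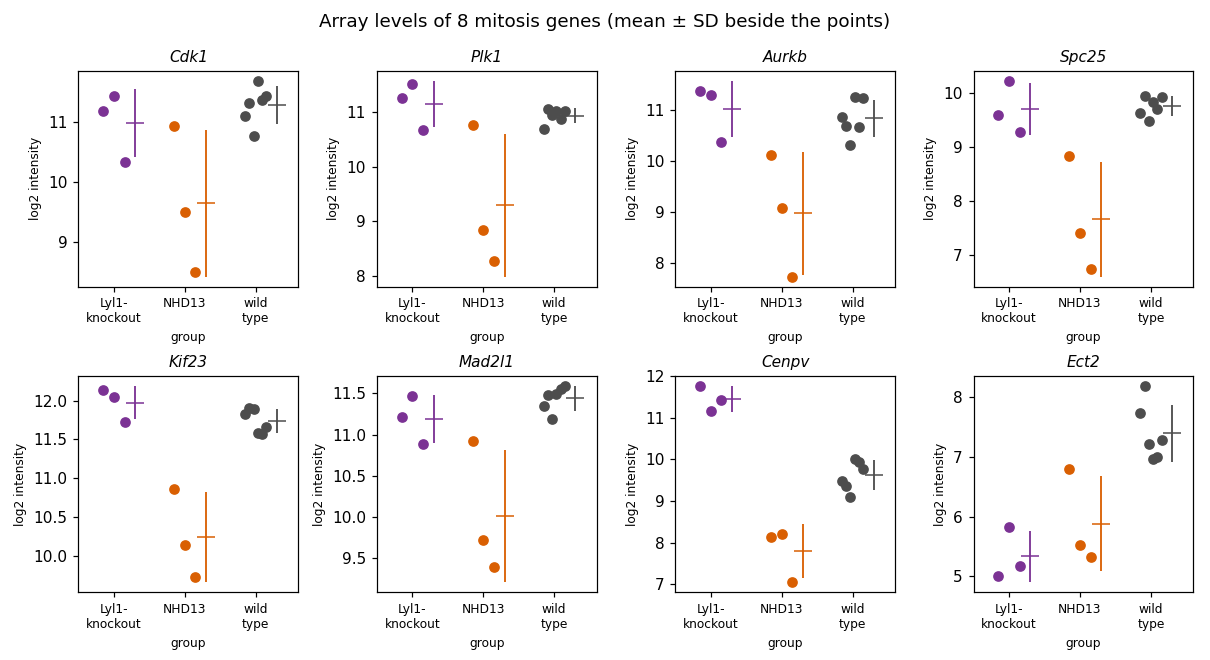
Log2 intensity of 8 genes on each array, with the group mean ± SD beside the points (3 knockout, 3 NHD13 and 6 wild-type arrays; vertical axes differ and do not start at 0). Cdk1, Plk1, Aurkb, Spc25, Kif23 and Mad2l1 are lowest in NHD13 replicates 2 and 3, Cenpv is highest in the knockout group (11.16 to 11.77) and Ect2 lower there (5.00 to 5.82) than in wild type (6.97 to 8.19).

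Of the spindle checkpoint and anaphase-promoting complex genes, 5 of 6 were measured, 3 fell in NHD13 and 2 rose in the knockout group against NHD13. Mad2l1, the checkpoint protein that holds Cdc20, read 11.21, 11.47 and 10.89 in the knockout group, 10.92, 9.72 and 9.40 in NHD13, and 11.19 to 11.59 (median 11.49) in wild type. NHD13 lay wholly below wild type, by 2.69-fold (-1.43 ± 0.28, adjusted p = 0.00458), and the knockout group, overlapping NHD13 by 1 array, was 2.26-fold above NHD13 (1.18 ± 0.32, adjusted p = 0.0229). Cdc20, the coactivator that the checkpoint restrains and the first of the promoters shown above, had 11.81, 11.94 and 11.19 in the knockout group, 11.24, 9.95 and 9.71 in NHD13, and 11.41 to 11.92 (median 11.53) in wild type. Cdc20 was 2.49-fold lower in NHD13 than in wild type (adjusted p = 0.0107) and 2.54-fold higher in the knockout group than in NHD13 (adjusted p = 0.0196), and 1 of its 4 probes did not pass in either comparison.

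Bub1b, BubR1 of the checkpoint complex, read 11.61, 11.87 and 11.18 in knockout arrays, 11.49, 10.37 and 9.71 in NHD13 arrays, and 11.68 to 12.21 (median 11.88) in wild type. It fell 2.65-fold in NHD13 (-1.41 ± 0.32, adjusted p = 0.00935), and the difference of 1.03 ± 0.37 between the knockout group and NHD13 did not pass (adjusted p = 0.066). Ube2c, the ubiquitin-conjugating enzyme of the complex, read 6.21, 6.02 and 5.66 in the knockout group, 5.77, 4.95 and 4.70 in NHD13, and 5.52 to 6.24 (median 5.67) in wild type, and passed in no comparison (-0.66 and 0.83, adjusted p = 0.0883 and 0.0654). Ttk, the kinase Mps1 that starts checkpoint signalling, was near background, with 5.93, 5.74 and 4.83 in the knockout group, 4.72, 4.61 and 4.73 in NHD13, and 5 to 6.17 (median 5.52) in wild type. No NHD13 array detected it, and neither comparison with NHD13 passed (adjusted p = 0.0634 and 0.129).

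All 4 measured spindle genes of 5 fell in NHD13 and rose in the knockout group against NHD13. Tpx2, which activates Aurora A on spindle microtubules, read 9.48, 9.42 and 8.82 in the knockout group, 8.21, 7.01 and 6.56 in NHD13, and 8.69 to 9.57 (median 9.17) in wild type. Tpx2 fell 3.62-fold (-1.86 ± 0.33, adjusted p = 0.00281) and was 3.94-fold higher in the knockout group than in NHD13 (1.98 ± 0.38, adjusted p = 0.0046). Nusap1, which bundles microtubules near chromosomes, had 11.75, 11.77 and 11.30 in the knockout group, 10.57, 9.50 and 9.11 in NHD13, and 11.11 to 11.59 (median 11.37) in wild type. For both genes every NHD13 array lay below all others. Nusap1 was 3.09-fold lower in NHD13 than in wild type (-1.63 ± 0.27, adjusted p = 0.00199) and 3.68-fold higher in the knockout group than in NHD13 (1.88 ± 0.31, adjusted p = 0.00224), while of its other 2 probes 1 was called lower in NHD13 (-0.98) and neither was called in the second comparison.

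Kif11, the motor that pushes spindle poles apart, read 10.50, 11.02 and 10.03 in the knockout group, 9.91, 8.93 and 8.44 in NHD13, and 9.65 to 10.74 (median 10.26) in wild type. It overlapped wild type through NHD13 replicate 1. Kif11 fell 2.19-fold in NHD13 (-1.13 ± 0.34, adjusted p = 0.0355) and was 2.68-fold higher in the knockout group than in NHD13 (1.42 ± 0.4, adjusted p = 0.0249). The call in NHD13 was lost in 6 of the 12 fits that left out 1 array, and the other in 3. Kif2c, a kinesin that shortens microtubules at kinetochores, was 2.91-fold lower in NHD13 than in wild type (adjusted p = 0.022) and 3.02-fold higher in the knockout group than in NHD13 (adjusted p = 0.0354).

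Of the genes of the central spindle and cytokinesis, 5 of 7 were measured, 4 fell in NHD13 and 2 rose in the knockout group against NHD13. Kif23, the motor of the centralspindlin complex, had the lowest adjusted p of the members in NHD13 against wild type. Its probe read 12.14, 12.05 and 11.73 in the knockout group, 10.87, 10.14 and 9.73 in NHD13, and 11.57 to 11.9 (median 11.75) in wild type. The NHD13 arrays lay apart from the other 9. Kif23 fell 2.81-fold (-1.49 ± 0.22, adjusted p = 0.00104) and was 3.31-fold higher in the knockout group than in NHD13 (1.73 ± 0.26, adjusted p = 0.00133). Of its 4 probes, 2 were called in both comparisons and 2 in neither, 1 of these with -0.12 in the second. Anln, anillin, the scaffold of the contractile ring, was 2.7-fold lower in NHD13 than in wild type (adjusted p = 0.00345) and 3.12-fold higher in the knockout group than in NHD13 (adjusted p = 0.00395), also with no overlap in either.

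Prc1, which bundles the antiparallel microtubules of the central spindle, read 12.18, 12.30 and 11.42 in the knockout group, 11.96, 10.84 and 10.14 in NHD13, and 11.83 to 12.41 (median 12.1) in wild type. It was 2.17-fold lower in NHD13 than in wild type (-1.12 ± 0.34, adjusted p = 0.0341), a call lost in 6 of the 12 fits that left out 1 array, and 0.99 ± 0.39 in the knockout group against NHD13 did not pass (adjusted p = 0.0898). Kif4, a chromosome-bound kinesin, did not pass in either (-1.05 ± 0.4 and 1.17 ± 0.46, adjusted p = 0.0808 and 0.0881), although 1 of its 3 probes was called lower in NHD13 (-1.23, adjusted p = 0.0259).

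Ect2 was the exception among the cytokinesis genes. It encodes the exchange factor that switches on RhoA at the cleavage furrow once centralspindlin has recruited it. Ect2 read 5.00, 5.82 and 5.18 in the knockout group, 6.79, 5.52 and 5.33 in NHD13, and 6.97 to 8.19 (median 7.25) in wild type. Both transgenic groups lay wholly below wild type and overlapped each other. Ect2 was 2.86-fold lower in NHD13 than in wild type (-1.51 ± 0.36, adjusted p = 0.0113) and 4.17-fold lower in the knockout group than in wild type (-2.06 ± 0.36, adjusted p = 0.00544), and the difference between the knockout group and NHD13 did not pass (-0.55 ± 0.41, adjusted p = 0.379). The probe was detected on 1 knockout, 2 NHD13 and 6 wild-type arrays, so the low values lie near background, and a second Ect2 probe was detected on no array. With undetected arrays raised to the lowest signal detected on them, Ect2 was 3.64-fold lower in the knockout group and 2.79-fold lower in NHD13 than in wild type. The call in NHD13 was lost with either technical class as a block. The difference between the knockout group and wild type was between -2.31 and -1.89 whichever array was left out. Its promoter, printed above for holding both elements, has its CHR 114 bases before the start, upstream of both CCAAT boxes, against 15 to 23 bases for the CHR nearest the start in the other 4 printed promoters. Whether this position bears on the levels of Ect2 was not tested. Neither element was found for Nusap1, Mad2l1, Anln, Birc5, Ndc80 and Cenpv, which were called in both comparisons with NHD13.

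Other mitosis genes were read from a list of 72, of which 61 were measured. In NHD13 against wild type 37 fell and 1 rose (median -1.2), and in the knockout group against NHD13 32 rose and 0 fell (median 1.29), while against wild type 0 rose and 5 fell in the knockout group. The shares over all genes were 12.6% lower and 11.6% higher in the first comparison. They were 9.22% lower and 13% higher in the second, and 3.81% lower and 4.49% higher in the third. Kif18a, a kinesin that damps chromosome movements, was 5.66-fold lower in NHD13 than in wild type (-2.5 ± 0.28, adjusted p = 0.000202) and 7.48-fold higher in the knockout group than in NHD13 (adjusted p = 0.000323). Cenpk and Cenph of the constitutive centromere network fell 4.38-fold and 3.29-fold in NHD13. The 1 that rose was Cdc25b, a phosphatase that activates cyclin-dependent kinases, at 3.61-fold (1.85 ± 0.44, adjusted p = 0.0116). Esco2, which acetylates cohesin during replication, was lower than in wild type in both transgenic groups, 2.04-fold in the knockout group (adjusted p = 0.0348) and 3.92-fold in NHD13 (adjusted p = 0.000701).

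Condensin, cohesin and the core of the anaphase-promoting complex had smaller median differences in NHD13 against wild type than the 31 mitosis genes (-1.41). Of 8 condensin genes, 3 fell in NHD13 (Smc2, Ncapg2 and Ncaph, median of the list -0.75) and 2 rose in the knockout group against NHD13. Of 9 cohesin genes, 3 fell in NHD13 (Smc3, Stag1 and Pds5a, median -0.47) and 2 rose in the knockout group, and Pds5a was lower in the knockout group than in wild type as well (-0.96 ± 0.16, adjusted p = 0.00476). Of 12 measured core subunits of the anaphase-promoting complex, 1 fell in NHD13 (Cdc16, 1.69-fold, adjusted p = 0.00821) and the median was -0.07. Over all genes 12.6% were called lower in NHD13 than in wild type and 13% higher in the knockout group than in NHD13. The counts of these short lists are to be read beside those shares, and the differences between lists were not tested.

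Among 13 measured transcription factors of mitotic genes, 3 fell and 1 rose in NHD13, where 12.6% of all genes were called lower and 11.6% higher. Against NHD13, 2 fell and 1 rose in the knockout group, where 9.22% of all genes were called lower and 13% higher. Foxm1 (2.61-fold, adjusted p = 0.0241) and Mybl2, which encodes B-Myb (2.34-fold, adjusted p = 0.00828), both activators of these genes, were lower, as was Tfdp1, a partner of E2F factors (2.15-fold, adjusted p = 0.0099). Tfdp2, another E2F partner, was 1.97-fold higher (0.98 ± 0.19, adjusted p = 0.00453). In the knockout group against NHD13, Mybl2 was 2.5-fold higher (adjusted p = 0.0121) and Tfdp2 2.01-fold lower (adjusted p = 0.00847), while Foxm1 did not pass (1.14 ± 0.44, adjusted p = 0.0892). Rbl2, the pocket protein p130 that represses cell cycle genes in resting cells, was 2.27-fold lower there (-1.18 ± 0.27, adjusted p = 0.0101). Rbl2 was not called in NHD13 against wild type, and its part in the levels of mitosis genes was not tested.

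DNA replication genes, the nearest list in the cell cycle, showed 31 of 34 lower and 0 higher in NHD13 than in wild type (median -1.16), and 18 higher and 0 lower in the knockout group than in NHD13 (median 0.98). Shares over all genes were 12.6% lower in the first comparison and 13% higher in the second. The mean deviation of the replication genes from wild type was -0.27, 0.13 and -0.39 in knockout replicates 1 to 3 and -0.50, -1.43 and -1.60 in NHD13 replicates 1 to 3, so the NHD13 arrays stood in the same order as for the mitosis genes. Mcm10, which loads onto the replicative helicase, fell 3.51-fold in NHD13 (adjusted p = 0.00234), and E2f1, a transcription factor of the G1 to S transition, fell 2.48-fold (adjusted p = 0.00245).

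**Figure D4:**
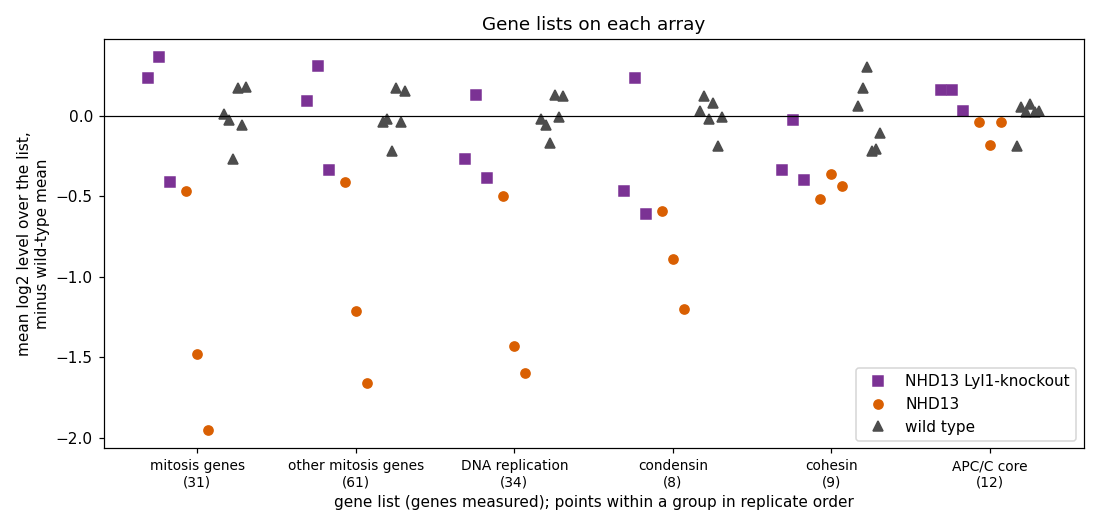
Mean log2 level of 6 gene lists of cell division minus their wild-type means, 1 point per array (squares knockout, circles NHD13, triangles wild type), with the number of genes measured under each list. The NHD13 circles lie at -0.47, -1.48 and -1.95 for mitosis genes, at -0.50, -1.43 and -1.60 for DNA replication, and at -0.04, -0.18 and -0.04 for the core of the anaphase-promoting complex.

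Markers of thymocyte stage and of other cells moved beside the mitosis genes, and their part in the result was not tested. Their counts are to be read beside the shares over all genes. These were 12.6% lower and 11.6% higher in NHD13 than in wild type. In the knockout group 9.22% were lower than in NHD13 and 3.81% lower than in wild type. Of the 15 measured DN markers (17 listed), 4 were lower and 2 higher in NHD13 than in wild type, and the median difference was -0.19. Rag1 and Ptcra, the pre-T cell receptor chain, were 30.8-fold and 10.5-fold lower, and Kit, a receptor of early progenitors, and Dtx1, a target of Notch, were 6.77-fold and 3.63-fold higher. The list's summed signal was 27900 to 78900 in the knockout group, 63200 to 83800 in NHD13 and 77400 to 85200 in wild type. Of the 6 measured markers of CD4+CD8+ and later thymocytes (11 listed), 4 were higher in NHD13 than in wild type, Klf2 and Ccr7 among them, and the summed linear signal of the list was 6890 to 10700 in the knockout group, 24000 to 31800 in NHD13 and 7750 to 10400 in wild type. Cd4 was detected on 4 of 12 arrays, and Cd8a and Cd5 fell below the filter. Of 4 measured erythroid markers (9 listed), 2 were higher in NHD13, with summed signals of 2820 to 4050 in the knockout group, 6850 to 12300 in NHD13 and 2700 to 4760 in wild type. Of 5 measured gamma delta T cell markers (8 listed), 2 were higher in NHD13 than in wild type (Sox13 and Cd163l1), with sums of 1230 to 19700 in the knockout group, 17400 to 21100 in NHD13 and 5490 to 6620 in wild type. Of 8 measured NK and innate lymphoid markers (11 listed), 4 were lower in NHD13, Klra3 by 29.3-fold, and 1 was higher (Nkg7), with sums of 4070 to 14600 in the knockout group, 12500 to 16300 in NHD13 and 11600 to 14800 in wild type. Of 7 measured dendritic cell markers (10 listed), 4 were lower in the knockout group than in wild type, with sums of 5110 to 12100 in the knockout group, 6070 to 13300 in NHD13 and 8030 to 24300 in wild type. Of 4 measured B cell markers (7 listed) and 4 of thymic stroma (12 listed), 1 of each was lower in the knockout group than in NHD13 (Cd79b and Pecam1), and Pecam1 was higher in NHD13 than in wild type. In the knockout group the myeloid sum ran from 582 to 88200 while the sum over the 31 mitosis genes was 71900 in the array with the high myeloid sum, and 76500 and 46900 in the other arrays. In NHD13 replicates 1 to 3 the myeloid sums were 4910, 51200 and 2690, and the sums over the 31 mitosis genes 46600, 22900 and 17600.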

How the data were processed

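The deposited table of scanner output gives 1 intensity per probe and array, with a detection p-value beside it, per the file headers. BeadStudio and limma are named per the submitters' processing notes, without role or version, and no genome build is named in the sources used here. The authors also deposited a normalized table of log2 values, which correlated at 0.9998 with the normalization made here and served as an alternative. The limma 3.58.1 function neqc (R 4.3.3) was applied to the intensities (background from the detection p-values, offset 16, quantile normalization, log2). A filter that asked for a detection p under 0.05 on 3 or more arrays left 20416 of 45281 probes. The platform annotation gave 34885 probes 1 symbol, 18 several and 10378 none, and 6 list symbols were matched through synonyms. Each gene was read at the brightest of its remaining probes. All 12 arrays were fitted with a mean per group (lmFit, eBayes), 3 contrasts were tested, and the Benjamini and Hochberg adjustment ran over all probes left, calls being made under 0.05. The number of arrays limits the precision.

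The members, the lists and the tests were chosen with earlier results of these data known. Levels array by array are given for named mainstays of each stage of mitosis and for the lowest adjusted p of each role in NHD13 against wild type. They are also given for the 3 largest and 3 smallest changes in each comparison and for members that go against the majority. From every other list, up to 4 genes per direction were to be named among those called in NHD13 against wild type. Rbl2 was named outside that rule. The technical classes were found from the spread of undetected probes and, after seeing the data, from their correlation between arrays. A promoter motif was searched in the 250 bases before the start on both strands, in RefSeq windows of 250 bases before and 50 after it.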

Additional observations from a re-analysis of the deposited data

How the results depend on the processing

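In NHD13 against wild type, 24 members were lower. The count was 13 with median scaling, 12 with the replicate block, 15 within the technical class by spread, 10 at an adjusted p under 0.01, and 11 against wild-type replicates 1 to 3 alone, a setting chosen after seeing the data. Over all 10497 genes, 449, 859, 894, 574 and 1134 were called lower in these settings, in that order, against 1325. Leaving out 1 array gave 8 to 27, the lowest without NHD13 replicate 3 and the highest without NHD13 replicate 1, and leaving out replicate 1 of both transgenic groups gave 28. Genes called lower over all measured were 665, 1395 and 1662 in these fits, in that order. In the knockout group against NHD13, 21 members were higher, and the count was 13 with the technical class by spread as a block, 22 with the class by correlation, chosen after seeing the data, 4 in a fit of only these 6 arrays and 6 at an adjusted p under 0.01. Over all genes 901, 1692, 552 and 520 were called higher in these settings, in that order, against 1361. Leaving out 1 array gave 7 to 26, the lowest without NHD13 replicate 2 or 3 (722 and 796 of all genes). The highest was without NHD13 replicate 1 (1471 of all genes). In the knockout group against wild type the count was 2 (Cenpv and Ect2) in each of these settings. Every call in the settings run was lower in NHD13 than in wild type and higher in the knockout group than in NHD13. Median scaling moved the median of all genes to 0.28 in NHD13 against wild type, with 4.28% called lower and 19.3% higher, and members stood at -1.29 relative to it. It moved that median to 0.33 in the knockout group against wild type, with members at 0.14 relative to it. The deposited values gave 23, 20 and 2 calls, and sex as a covariate gave 29, 26 and 2. Over all genes the deposited values gave 1341 lower in the first comparison and 1392 higher in the second. Sex as a covariate gave 1199 and 1521. The difference of Ttk between the knockout group and NHD13 was -0.09 with the class by spread as a block, and that of Ect2 ran from -0.82 to 0.07 as arrays were left out, with 0.07 without both knockout replicate 1 and NHD13 replicate 1, and none of these values passed. The cause of these shifts was not tested, apart from the fewer arrays or the stricter threshold that some settings impose by construction.

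Replicate numbers are shared by the groups. Deviations of same-numbered arrays correlated at -0.15 to 0.17, which does not show whether the numbers pair the samples. Replicate 3 was the lowest array of its group for 18 of 31 members in wild type, 29 in NHD13 and 28 in the knockout group. Whether the numbers mark a pairing or a shared batch was not tested. With the replicate block, 12, 18 and 2 members were called in the 3 comparisons. That block left 859 of all genes lower in the first comparison and 947 higher in the second. Signal over background limits Ccna2, Ttk and Ect2, whose low levels lie near the detection floor.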

Other observations

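The wild-type arrays themselves differed by technical class. In 14 of the 31 members wild-type replicates 4 to 6 all lay above replicates 1 to 3, in 5 (Ccna2, Ttk, Tpx2, Nusap1 and Kif23) they all lay below, and in 12 they overlapped, with a median difference of 0.3 on the log2 scale. The matching shares over all genes were not computed, so these counts do not set the members apart from other genes. Sex differs between the same arrays and cannot be told apart from the class there.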
